A study of Mus musculus with 15 samples.

Results

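Bone morphogenetic protein (BMP) signalling was described through 10 genes chosen by name: the ligands Bmp2, Bmp3, Bmp4 and Bmp7, the secreted antagonists Grem1 and Fst, the receptor gene Bmpr1a, and the target genes Id1, Id2 and Id3. All 10 genes had a row among the 25038 genes of the RPE/choroid count table. In the table of cultured mouse RPE (mRPE) cells, 9 of the 10 had a row among 20910 genes, and Bmp7 was not analysed there.

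BMP ligands are secreted dimers that bind type I receptors, of which Bmpr1a encodes one, together with type II receptors. The receptors phosphorylate SMAD1, SMAD5 and SMAD9, which enter the nucleus with SMAD4 and switch on targets such as the Id genes. Id proteins lack a DNA-binding region and hold basic helix-loop-helix partners away from DNA, while Gremlin 1 (Grem1) binds BMP2, BMP4 and BMP7 outside the cell and follistatin (Fst) binds activins and, less tightly, BMPs. In the developing eye BMPs pattern the optic cup and take part in specifying the retinal pigment epithelium (RPE), the pigmented layer under the photoreceptors.

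The study asked what loss of Prom1 (prominin-1, a membrane glycoprotein) does to the RPE. Libraries of poly(A) RNA came from immortalized mRPE cells and from dissected RPE/choroid. The mRPE cells were pooled from C57/BL6J mice and immortalized with lentiviral HPV E6/E7. In culture there were 4 WT libraries, 3 of the CRISPR/Cas9 clone KO22 and 2 of the clone KO26. The paper removed both KO26 libraries as outliers on principal components, and proposed biological heterogeneity or technical anomalies. All KO26 results below rest on these 2 libraries. Both clones derive from Cas9-expressing mRPE cells given a guide against exon 5 of Prom1, and each knockout group is 1 clone, so clone and knockout cannot be told apart within a group. The labels do not say whether the WT libraries carried Cas9 or a scrambled guide. The tissue groups were 3 WT libraries and 3 labelled Prom1-KO, the latter from Prom1fl/fl mice crossed with RPE65-Cre and gavaged with tamoxifen, so deletion was aimed at RPE cells, while the sample also holds choroid. Per the study's methods, mice of both sexes aged 6 to 8 weeks were used, and donors of the mRPE cells were aged 8 to 12 weeks. The age at dissection of the tissue libraries and the alleles and tamoxifen status of the WT mice were not given in the sources used here. Nothing says that the libraries of a group came from separate cultures, so p-values for mRPE measure the spread between these libraries, which may be technical.

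Total counts were 8076188 to 27537863 in mRPE and 48154444 to 61766179 in RPE/choroid. The mRPE libraries carry 2 batch numbers in their names, 8995 (1 library of each group) and 9262 (3 WT, 2 KO22 and 1 KO26). In RPE/choroid, 64.9% to 69.1% of the counts were mitochondrial in WT and 71.3%, 71.0% and 84.2% in Prom1-KO, so all Prom1-KO libraries were above all WT libraries. The part of this in the tissue results was not tested. Prom1-KO replicate 3, at 84.2%, stands apart, and the fold changes of Bmp4, Id2, Id3, Bmpr1a and Bmp7 are given with and without it. Other tissue results, Prom1 and the marker sums among them, are not given without it. Prom1 itself had no row in the mRPE table. In RPE/choroid its level was 48.7, 49.6 and 53.3 CPM (counts scaled to library size) in WT and 49.9, 48.1 and 35.5 CPM in the libraries labelled Prom1-KO. This was a log2 fold change of -0.18 ± 0.16 (SE, edgeR adjusted p = 0.824), so the bulk RNA does not show the deletion. Of 10 RPE markers only Best1, Mitf and Pmel had a row in the mRPE table, and their summed level was 5.38 to 38.7 CPM. Of 5 fibroblast and stroma markers 4 had a row, summing to 4035 to 13075 CPM, with Col1a1 at 4119 ± 940 CPM (SD, n = 4) in WT. The cultures are therefore called mRPE after their label, while the defining visual-cycle genes Rpe65 and Lrat had no row there.

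CPM here are counts divided by library size after TMM scaling, within each table. To set genes of different length side by side, CPM were divided by exon length in kilobases (FPKM). On that FPKM scale the levels in WT mRPE ran from Id3 at 35.3 ± 6.75 (SD, n = 4) through Bmpr1a at 27.5 ± 2.00, Bmp3 at 18.9 ± 3.70, Grem1 at 12.0 ± 5.02, Id1 at 10.2 ± 4.28, Bmp4 at 7.30 ± 3.06, Id2 at 3.87 ± 0.241 and Fst at 1.62 ± 0.447 to Bmp2, which had no count. The ranges of Id3 and Bmpr1a touched, as did those of Bmp3 and Grem1 and those of Grem1, Id1 and Bmp4. In WT RPE/choroid the FPKM order was different. Id3 led at 8.29 ± 3.39 (SD, n = 3), followed by Bmp4 at 6.93 ± 2.24, Bmpr1a at 5.89 ± 0.321, Id1 at 4.98 ± 2.02, Id2 at 3.46 ± 0.927 and Bmp7 at 2.91 ± 1.19. Bmp2 was at 0.953 ± 0.397 FPKM there, Bmp3 at 0.676 ± 0.291, Fst at 0.256 ± 0.0860 and Grem1 at 0.159 ± 0.251. Tissue and culture were sequenced and tabulated separately, so their levels stand side by side with no test. Bmp3 and Grem1 thus stood directly below Id3 and Bmpr1a in WT cells, while in WT tissue Grem1 was last and Bmp3 was above only Fst and Grem1.

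The comparison of KO22 with WT asked how these genes stood in the first knockout clone. The ligand genes Bmp3 and Bmp4 fell, the antagonist gene Grem1 rose, Bmp2 appeared from no counts, and of the 3 Id genes Id1 alone passed the limits. A gene was called where the Benjamini-Hochberg adjusted p was under 0.05 and the absolute log2 fold change was over 1.2. By edgeR's quasi-likelihood test with batch as a term, 3 of the 9 tested members were called higher and 2 lower. Over all 20455 genes tested, 11.4% were called higher and 13.8% lower, so many genes differed between this clone and WT.

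By FPKM Grem1 had the highest level of the 9 members in KO22. Its CPM were 80.9, 42.1, 37.2 and 38.8 in WT replicates 1 to 4, and 1960, 1008 and 837 in KO22 replicates 1 to 3. Every KO22 library was above every WT library, and the lowest KO22 value was more than 10 times the highest WT value. The log2 fold change was 4.56 ± 0.13 (SE), a 23.6-fold higher level (edgeR adjusted p = 9.6e-08), and its p ranked 5 among all genes tested. Within batch 8995 the difference of log2(CPM + 0.5) was 4.59 (1 library against 1), and within batch 9262 it was 4.53 (2 against 3). Fst, the other antagonist, was not called. Its CPM were 10.8, 6.17, 6.87 and 6.75 in WT and 22.5, 7.81 and 9.62 in KO22, and these ranges overlapped. Its log2 fold change was 0.61 ± 0.19 (edgeR adjusted p = 0.0201), under the fold limit.

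Bmp2, a ligand that signals through Bmpr1a, had 0 counts in all 4 WT and both KO26 libraries. In KO22 it had 25, 64 and 37 counts, or 2.16, 3.09 and 2.87 CPM. Against a floor of 3 counts over all WT libraries together, the KO22 level was at least 59.4-fold higher, and against the same floor over the KO26 libraries at least 28.1-fold higher. These bounds cover counting error only. Bmp2 passed the filter on low counts only through the KO22 libraries, so its call (edgeR adjusted p = 0.000102) carries little beyond the counts themselves. On the length-corrected scale it stayed low, at 0.584 ± 0.104 FPKM (SD, n = 3).

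Bmp3 encodes a BMP that does not activate the SMAD1/5/9 branch and can oppose other BMPs. By FPKM it ranked below only Id3 and Bmpr1a in WT cells. It was at 117, 149, 174 and 118 CPM there, and it was nearly lost in KO22, at 0.432, 1.78 and 0.776 CPM, which correspond to 5, 37 and 10 counts. The groups did not overlap. The log2 fold change was -6.98 ± 0.31 (SE), a 126.5-fold lower level (edgeR adjusted p = 6.2e-07). Bmp4, a ligand whose loss disturbs eye development, had 61.9, 28.4, 28.4 and 34.3 CPM in WT and 3.37, 4.15 and 2.41 CPM in KO22. All KO22 values lay under all WT values. The log2 fold change was -3.47 ± 0.25, an 11.1-fold lower level (edgeR adjusted p = 6.7e-06). WT replicate 1, from batch 8995, held about 2.04 times the Bmp4 and 2.06 times the Grem1 level of the mean of the other WT libraries. Within batches the Bmp4 difference of log2(CPM + 0.5) was -4.01 in 8995 and -3.06 in 9262.

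Bmpr1a, the type I receptor gene, showed little difference: 218, 205, 233 and 198 CPM in WT against 265, 249 and 225 CPM in KO22. Its log2 fold change was 0.20 ± 0.11 with a 95% interval of -0.02 to 0.41 (edgeR adjusted p = 0.16), and the groups overlapped.

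The 3 target genes differed from each other. Id1 had 28.6, 13.6, 11.6 and 18.5 CPM in WT and 90.0, 43.6 and 68.8 CPM in KO22, with no overlap. This was a log2 fold change of 1.85 ± 0.20 (SE), 3.60-fold higher (edgeR adjusted p = 5.8e-05), and 1.64 and 1.90 within the batches on the log2(CPM + 0.5) scale. Id2 had 13.3, 12.6, 14.6 and 13.5 CPM in WT and 13.1, 3.86 and 9.16 CPM in KO22. One KO22 library lay among the WT values, and the log2 fold change of -0.76 ± 0.31 was not called (edgeR adjusted p = 0.066). Id3 had 79.9, 55.3, 53.4 and 64.2 CPM in WT and 121, 47.2 and 65.8 CPM in KO22. It was highest in the batch 8995 library of both groups, and its log2 fold change of 0.16 ± 0.17 had an interval of -0.17 to 0.48 (edgeR adjusted p = 0.459).

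**Figure D1:**
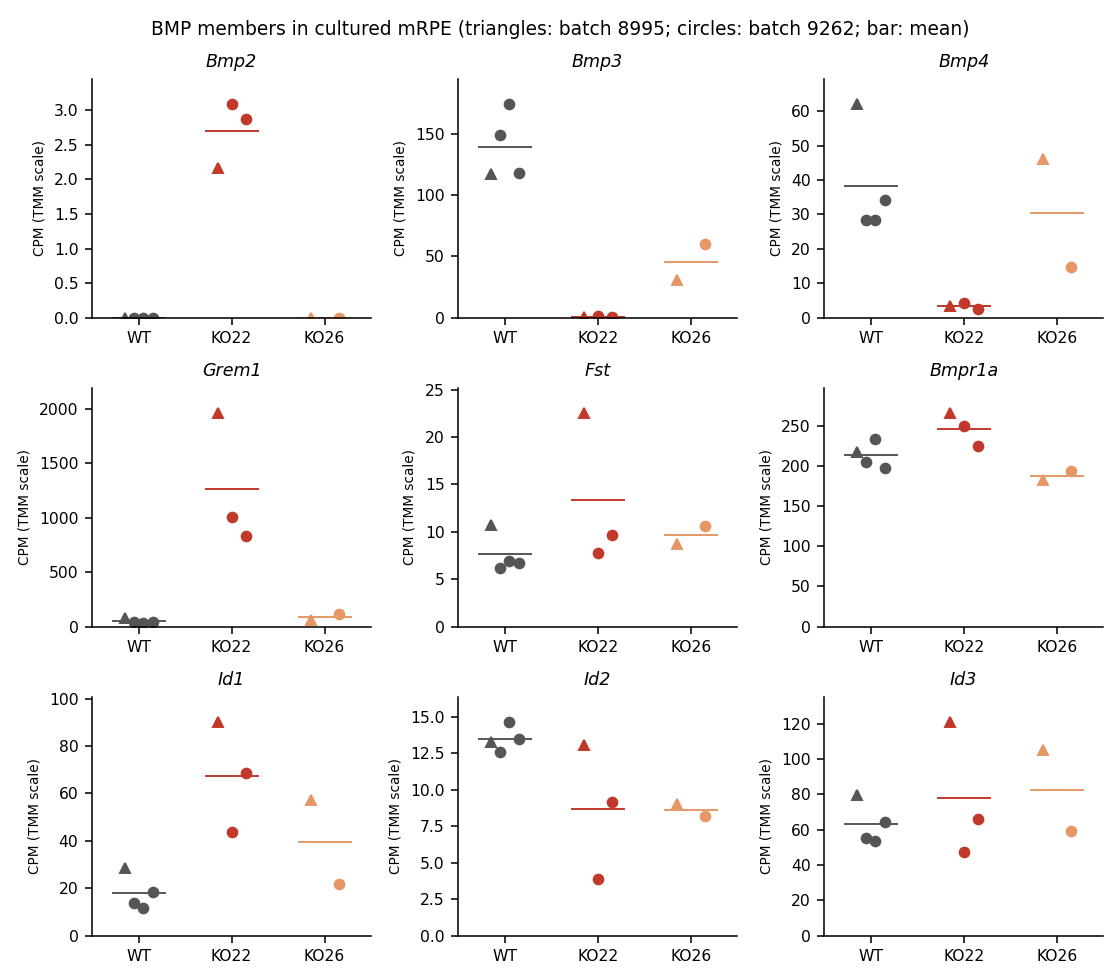
Levels of the 9 BMP members with a row in the mRPE table, in CPM after TMM scaling on linear axes that start at 0. Each point is 1 library (4 WT, 3 KO22, 2 KO26), triangles are batch 8995, circles are batch 9262 and bars are group means. Grem1 in KO22 lies at 837 to 1960 CPM, Bmp3 and Bmp4 in KO22 lie under all WT libraries, and Bmp2 has counts in KO22 alone.

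Marker lists moved between these groups as well. The 5 proliferation genes summed to 701 to 871 CPM in WT and 1830 to 2991 CPM in KO22, and 5 of 5 were called higher. The 4 smooth muscle and pericyte genes summed to 931 to 1951 CPM in WT and 260 to 362 CPM in KO22, with 3 of 4 called lower. The fibroblast and stroma sum was 7673 to 10544 CPM in WT and 4035 to 6767 CPM in KO22, with 2 of 4 called lower. Of the endothelial markers Kdr was at 177 ± 38.7 CPM in WT and only 2.21 ± 1.71 CPM in clone KO22, while Pecam1 was under 1 CPM in both groups. Plvap, another endothelial marker, went the other way at low levels, with a mean of 0.297 CPM in the WT libraries and 1.17 CPM in those of KO22, so that of 3 tested genes of this list 1 was called higher and 1 lower. The 3 RPE markers with a row summed to 8.18 to 12.8 CPM in WT and 15.5 to 38.7 CPM in KO22, with 1 of 3 (Mitf) called higher. Mitochondrial counts were 17.6% to 21.6% of the total in WT and 14.03% to 16.3% in KO22, with no overlap. The part of these shifts in the member results was not tested. In a bulk sample, fewer cells of a type and less RNA per cell cannot be told apart.

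Positions are on GRCm39 (mm39, the build of the files). Grem1 lies on chr2:113576509-113589000 (minus strand), Bmp2 on chr2:133394079-133404816 (plus), Id1 on chr2:152566218-152579544 (plus), Bmp3 on chr5:99002268-99032255 (plus) and Bmp4 on chr14:46620250-46636745 (minus). Antisense transcripts of unknown function are annotated over Bmp3, Bmp4 and Id1. The strand setting used for counting is not given in the sources used here, so reads of such pairs may not be separable. The 250 bases before the annotated start of 4 called members are printed, the 3 that were higher in KO22 (Grem1, Bmp2 and Id1) and 1 that was lower (Bmp3), because they differ in base composition. The start is that of the canonical transcript, which for Id1 lies inside the annotated span of the gene. They run 5′ to 3′ on the gene's strand, and capitals mark GGCGCC, a GC-rich element that BMP SMADs can bind.
Grem1 (chr2:113589001-113589250, minus strand): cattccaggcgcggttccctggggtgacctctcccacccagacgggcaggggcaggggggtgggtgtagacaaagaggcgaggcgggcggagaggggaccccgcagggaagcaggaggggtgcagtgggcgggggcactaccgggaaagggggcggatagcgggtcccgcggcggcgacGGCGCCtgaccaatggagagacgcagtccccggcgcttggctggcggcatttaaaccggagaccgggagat
Bmp2 (chr2:133393829-133394078, plus strand): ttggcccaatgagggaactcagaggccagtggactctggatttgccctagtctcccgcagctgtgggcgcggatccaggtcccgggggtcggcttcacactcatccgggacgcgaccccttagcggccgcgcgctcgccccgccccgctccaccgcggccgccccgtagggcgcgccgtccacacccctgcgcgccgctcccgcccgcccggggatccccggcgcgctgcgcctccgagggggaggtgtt
Bmp3 (chr5:99002018-99002267, plus strand): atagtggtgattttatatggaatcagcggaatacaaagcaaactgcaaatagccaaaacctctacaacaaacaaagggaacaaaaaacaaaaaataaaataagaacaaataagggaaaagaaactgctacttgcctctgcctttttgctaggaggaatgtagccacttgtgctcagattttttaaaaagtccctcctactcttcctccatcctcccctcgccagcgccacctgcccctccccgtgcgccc
Id1 (chr2:152577915-152578164, plus strand): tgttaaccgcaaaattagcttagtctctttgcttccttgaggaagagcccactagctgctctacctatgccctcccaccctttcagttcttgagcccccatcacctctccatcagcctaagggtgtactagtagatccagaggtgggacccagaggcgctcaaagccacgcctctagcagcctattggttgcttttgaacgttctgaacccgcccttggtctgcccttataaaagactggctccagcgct
The GC content of these windows was 70.8% for Grem1, 74.8% for Bmp2, 43.6% for Bmp3 and 52.8% for Id1, against a median of 53.2% over 21770 promoters of the same length. Bmp4, also lower in KO22, had 63.2%. Of the members not called, Bmpr1a had 76%, Fst 75.6%, Id2 53.2% and Id3 46.4%, and Bmp7, not analysed in mRPE, had 62.8%. GGCGCC, which reads the same on both strands, stood in the windows of Grem1 (1 copy, starting 71 bases before the gene's start) and Bmpr1a (2 copies) and in 9.31% of all promoters. None of the 3 Id windows held it, but sequence beyond these 250 bases was not read, so elements further away would be missed. The palindrome GTCTAGAC, another SMAD element, was in no member's window and in 0.239% of all promoters. CANNTG, the E-box read by the helix-loop-helix factors that Id proteins hold back and also the same on both strands, was in the windows of Bmp2, Bmp3, Bmp4, Bmp7 and Id2 and in 64.8% of all promoters. A match is a run of letters and was not tested as a binding site.

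**Figure D2:**
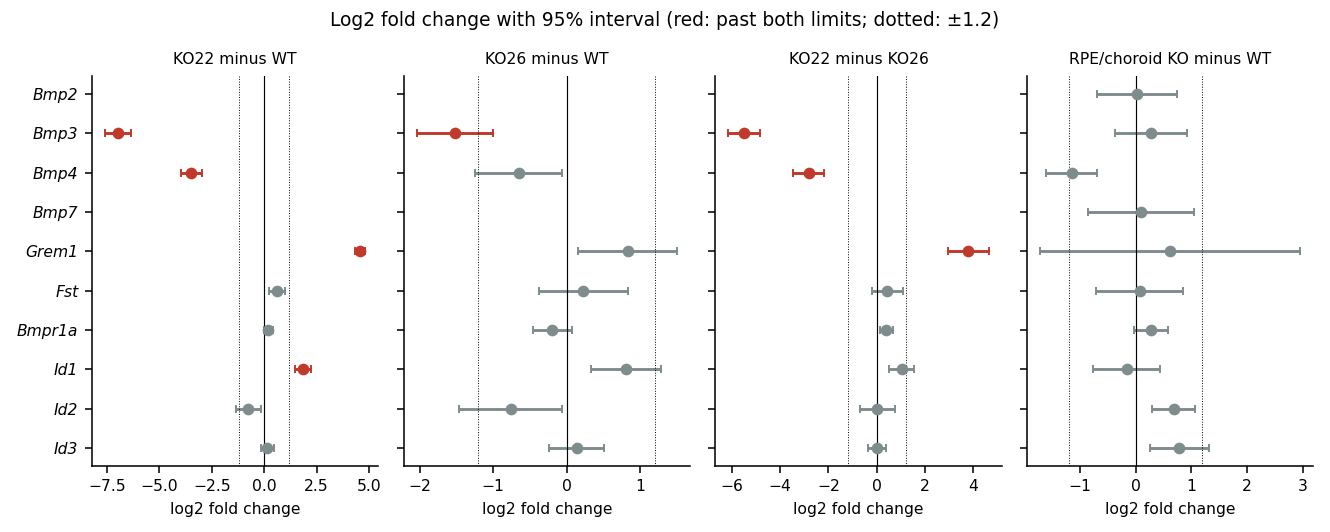
Log2 fold change of each member with its 95% interval in the 4 comparisons, with the horizontal scale set per panel. Red points passed both limits (dotted lines at ±1.2). Bmp2 is left out of the mRPE panels because WT and KO26 had no counts, and Bmp7 had no row there. Grem1, Bmp3, Bmp4 and Id1 are red against WT in KO22, Bmp3 alone in KO26, and no member in RPE/choroid.

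The comparison of KO26 with WT put the same members in a second clone. Bmp3 was lower, and no other member passed the limits. It was fitted over all 9 mRPE libraries because KO26 has 2. Of 9 members tested 0 were called higher and 1 lower, where 1.21% of 20737 genes were called higher and 0.719% lower. Bmp3 stood at 30.9 and 60.4 CPM in KO26, below the lowest WT library at 117 CPM. The log2 fold change was -1.52 ± 0.27 (SE), 2.87-fold lower (edgeR adjusted p = 0.0163). This call rests on several libraries: without WT replicate 1, 2 or 3 the edgeR adjusted p was 0.0783, 0.0546 and 0.0633, with log2 fold changes of -1.21, -1.57 and -1.47. Without KO26 replicate 1, which leaves 1 KO26 library, the log2 fold change was -1.33.

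Grem1 in KO26 split by batch. In 8995 KO26 had 60.2 CPM and WT 80.9 CPM, and in 9262 KO26 had 114.5 CPM and the WT libraries 37.2 to 42.1 CPM. The difference of log2(CPM + 0.5) was thus -0.42 in one batch and 1.53 in the other. The pooled log2 fold change was 0.83 ± 0.34 (edgeR adjusted p = 0.208). Without KO26 replicate 1 it was 1.55, and without KO26 replicate 2 it was -0.44, each from 1 remaining KO26 library. Bmp4 was at 46.2 and 14.8 CPM in KO26, each below the WT libraries of its own batch, with a log2 change of -0.65 ± 0.30 (edgeR adjusted p = 0.26). Id1 was at 57.1 and 21.7 CPM, each above the WT libraries of its batch, with a log2 change of 0.81 ± 0.24 (edgeR adjusted p = 0.101). Id2 at 9.0 and 8.21 CPM lay below all WT values, with -0.76 ± 0.36 (edgeR adjusted p = 0.265). Fst, Bmpr1a and Id3 had log2 fold changes of 0.23, -0.19 and 0.14, none called. Bmpr1a, at 183 and 193 CPM in KO26, also lay below all WT values, the lowest of which was 198 CPM. The share of all mRPE genes separated in this way is not given here. Marker lists differed here too. The proliferation genes summed to 1561 to 1763 CPM in KO26 against 701 to 871 CPM in WT, with 2 of 5 called higher. Of the smooth muscle and pericyte genes 1 of 4 was called higher, and Kdr was at 63.8 CPM in KO26 against 177 CPM in WT, not called. Their part in the member results was not tested.

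The clones were then compared with each other. KO22 had more Grem1 and Bmp2 and less Bmp3 and Bmp4 than KO26. Of the 9 members 2 were called higher in KO22 and 2 lower, where 7.56% of all genes tested were called higher and 10.7% lower. The log2 difference was 3.77 ± 0.43 (SE) for Grem1, 13.7-fold (edgeR adjusted p = 0.00012), -5.48 ± 0.33 for Bmp3 (2.2e-06) and -2.82 ± 0.33 for Bmp4 (0.00015). Bmp2 had counts in KO22 alone, as given above. For Id1 the difference of 1.04 ± 0.26 had an adjusted p of 0.0113 but stayed under the fold limit. Without KO22 replicate 1 it was 1.21 and called. Without KO26 replicate 1, which leaves 1 KO26 library, it was 1.32. For Id2 and Id3 the differences were 0.02 with an interval of -0.69 to 0.74 and 0.02 with an interval of -0.36 to 0.40. Differences of Bmpr1a and Fst were 0.40 ± 0.14 (edgeR adjusted p = 0.0503) and 0.43 ± 0.32 (edgeR adjusted p = 0.335). Both clones were compared with the same WT libraries, so their agreement in direction with WT is not independent.

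The rest of the pathway was read from 5 lists of 61 other genes, 48 of which were tested in mRPE. In KO22 against WT 3 were called higher and 9 lower, beside 11.4% higher and 13.8% lower over all genes tested, and the median log2 fold change over the 48 was -0.11 beside -0.03 over all genes.

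Among the 8 tested ligand genes of the BMP and activin branches 0 were called higher and 4 lower. Of these 4, Gdf6, Bmp8a and Gdf7 passed the filter on low counts only through the WT libraries, so the count says little about the list. Inhbb, an activin subunit gene, was at 23.6, 28.7, 20.3 and 34.4 CPM in WT and at 2.08, 2.89 and 2.33 CPM in KO22, which is a log2 change of -3.43 ± 0.23 (SE, edgeR adjusted p = 4.0e-06). Gdf6, a BMP-family ligand gene needed for eye formation, was at 3.34, 0.411, 0.491 and 0.0718 CPM in WT and had 0 counts in every KO22 library. Bmp8a and Gdf7 were the other called ligand genes, both at or below 2.26 CPM in every WT library. Bmp6, Bmp8b, Gdf11 and Inhba were tested and not called.

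Of 11 tested antagonists and modulators 1 was called higher and 3 lower. Bmper, which encodes a secreted BMP-binding protein, was the most abundant of those called, at 176, 142, 141 and 129 CPM in WT, 11.3, 25.0 and 18.9 CPM in KO22 and 227 and 128.5 CPM in KO26. It fell by 3.0 ± 0.25 on the log2 scale in KO22 (edgeR adjusted p = 1.4e-05), and it was not called in KO26 against WT. Chrd (chordin, which sequesters BMPs) fell by 2.57 ± 0.28 and Tll1 (a protease that cleaves chordin) fell by 1.43 ± 0.31. Bambi, a decoy receptor gene that BMP signalling itself induces, had a log2 change of 1.43 ± 0.40 (edgeR adjusted p = 0.0129) at low levels of 0.596 to 1.18 CPM in WT and 1.69 to 3.63 CPM in KO22. Fstl1 and Twsg1, the most abundant members of this list by FPKM, were not called.

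Of 10 tested receptor and co-receptor genes 1 was called higher and 1 lower. Rgma, a BMP co-receptor gene, was at 22.1 to 26.3 CPM in WT and 7.09 to 8.63 CPM in KO22, which is a log2 change of -1.56 ± 0.15 (edgeR adjusted p = 2.9e-05). Bmpr1b, another BMP type I receptor gene, had 1.48 ± 0.44 at low levels (0.206 to 1.43 CPM in WT). None of the 10 transducer genes was called. Among them Smad1 was at 17.6 to 20.7 CPM in WT and 36.6 to 46.0 CPM in KO22, which is a log2 change of 1.07 ± 0.13 (edgeR adjusted p = 0.000121) that stayed under the fold limit, and the inhibitory Smad6 had -0.97 ± 0.23 (edgeR adjusted p = 0.00574).

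Of 9 tested targets and partners 1 was called each way. Msx2, a homeobox gene that BMP signalling induces in many tissues, stood at 3.85, 4.52, 2.75 and 4.45 CPM across the WT libraries and 0, 0.0964 and 0.388 CPM in KO22 (log2 fold change -4.59 ± 0.55, edgeR adjusted p = 0.000121). Msx2 had 0 to 5 counts per KO22 library and passed the filter on low counts only through the WT libraries. Its call therefore carries little beyond the counts themselves. The levels of Msx2 and Id1, both known as BMP targets, differed from WT in opposite directions in KO22. Tcf12, which encodes a helix-loop-helix partner that Id proteins bind, had 219.8 ± 22.6 CPM in WT and 534 ± 137 CPM in KO22, which is a log2 change of 1.22 ± 0.12 (edgeR adjusted p = 4.1e-05) just past the fold limit.

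In KO26 against WT 1 of the 48 listed genes was called higher and 1 lower, beside 1.21% and 0.719% over all genes tested. Inhbb, at 11.3 and 6.01 CPM, had a log2 change of -1.61 ± 0.32 (edgeR adjusted p = 0.0244). Chrdl1 (chordin-like 1, a BMP antagonist) was at 4.77, 5.62, 6.48 and 4.02 CPM in WT, 18.9 and 21.3 CPM in KO26 and 3.98, 5.45 and 3.88 CPM in KO22. Its log2 fold change was 1.99 ± 0.23 in KO26 against WT (edgeR adjusted p = 0.00421), and KO22 minus KO26 was -2.20 ± 0.25 (edgeR adjusted p = 0.000112). Between the clones 3 listed genes were called higher in KO22 and 8 lower, beside 7.56% and 10.7% over all genes tested, Smad1 (1.31 ± 0.17) and Bmper (-3.22 ± 0.33) among them.

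**Figure D3:**
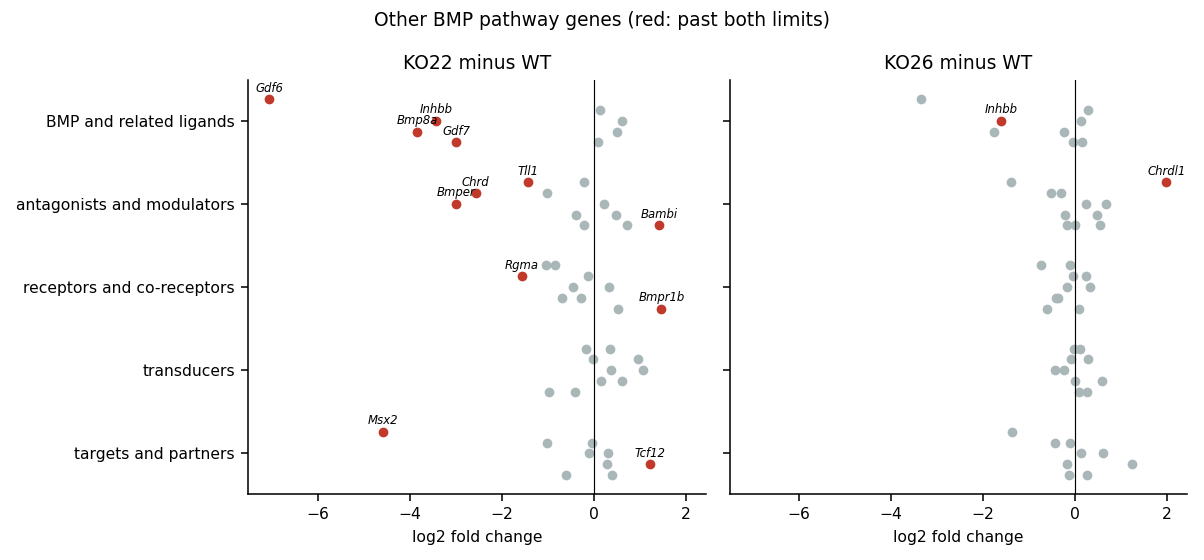
Log2 fold change of the 48 tested genes of 5 BMP pathway lists in KO22 (left) and KO26 (right) against WT. Each point is 1 gene, red and named where it passed both limits, with points spread vertically only to separate them. In KO22 9 genes are called lower and 3 higher, and in KO26 1 each way. All KO22 libraries had 0 counts of Gdf6, so its fitted position depends on the prior count.

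The genes next to the called members were read to see how far a change stayed with the member. Beside Grem1, Scg5 (17.7 kb away) had a log2 fold change of 2.09 in KO22 against WT (edgeR adjusted p = 0.00226) and Fmn1 (29.4 kb away), a locus known to carry enhancers of Grem1, had 0.93 (edgeR adjusted p = 0.000138). In KO26 the values were 0.54 and -0.28, neither called. Over the 10 tested genes around Grem1 within 1 Mb the median was 0.90, where chromosome 2 as a whole had a median of 0.14 over 1513 genes. Around Bmp3, of 5 tested genes within 1 Mb 1 was called higher and 1 lower. Prkg2 (44.6 kb away) went opposite to Bmp3, with 2.08 in KO22 (edgeR adjusted p = 1.7e-05) and 1.21 in KO26 (edgeR adjusted p = 0.0277), both called. Bmp4 too was lower beside a higher neighbour, Cdkn3 (361 kb away) at 1.33 (edgeR adjusted p = 0.00133), and of 33 tested genes within 1 Mb 9 were called higher and 1 lower, beside 11.4% and 13.8% over all genes tested. Gm15222, annotated antisense over Bmp4, was not tested in KO22 against WT. In the fit with the KO26 libraries it had -3.21 in KO22 minus KO26, called, and 0.25 in KO26 against WT, not called. Its reads may not be separable from those of Bmp4. Beside Id1, H13 and Bcl2l1 had 0.14 and 0.99, neither called. Beside Bmp2, Crls1 (685 kb away) had 0.54, not called. Hao1 (934 kb away) had a fitted 7.08 in KO22, called higher, and 0.15 in KO26, not called. A fitted value of this size can come from next to no counts in WT, as for Bmp2. The Hao1 call therefore says little about the region.

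**Figure D4:**
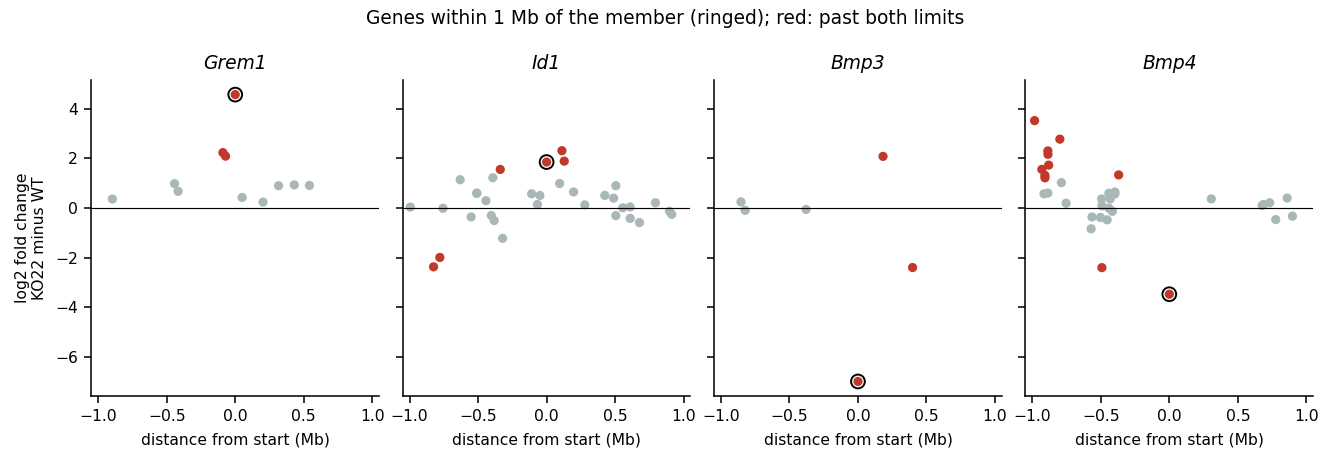
Log2 fold change (KO22 minus WT) of tested genes by the distance of their start from the start of Grem1, Id1, Bmp3 or Bmp4. Distances are in megabases and run 5′ to 3′ along the member's strand. The member is ringed, and red points passed both limits. Genes around Grem1 lie above 0, while Bmp3 and Bmp4 lie below the genes around them.

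In RPE/choroid the comparison of Prom1-KO with WT asked how the members stood in tissue. No member passed the limits. Bmp4 was lower in all 3 Prom1-KO libraries, and Id2, Id3 and Bmpr1a were higher in all 3, but none of these differences passed adjustment by edgeR. Of 10 members tested 0 were called, where 0% of 24926 genes were called higher and 0.189% lower. By unadjusted p under 0.05, 3 members (Bmp4, Id2 and Id3) stood out, where 2068 genes (8.30%) did in all. The groups did not overlap for 3 members that were higher and 1 that was lower in Prom1-KO, where 6.71% and 7.89% of all genes did so.

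Bmp4 was at 33.8, 26.0 and 49.1 CPM in WT and 17.8, 15.6 and 15.9 CPM in Prom1-KO. The log2 fold change was -1.15 ± 0.23 (SE, 2.21-fold lower, edgeR adjusted p = 0.178). By DESeq2 the adjusted p was 0.00125 with a fold change of -1.15, still under the fold limit of 1.2. Without Prom1-KO replicate 3 the edgeR log2 fold change was -1.14 (adjusted p = 0.302). Gm15222, annotated antisense over Bmp4, was called lower in tissue at -2.19, the 1 call among 34 tested genes within 1 Mb. Reads of this pair may not be separable. Summed RPE and endothelial markers were lower in the same libraries, but not every gene was. Rpe65, Lrat, Ttr, Rlbp1 and Mitf were lower in all Prom1-KO libraries, while Best1, Otx2, Pmel, Krt8 and Krt18 overlapped with WT. Of the endothelial genes Kdr and Plvap were lower in all Prom1-KO libraries, and Pecam1 and Cdh5 overlapped. The 10 RPE markers summed to 1119 to 1806 CPM in WT and 300.2 to 444 CPM in Prom1-KO. Of these, 2 of 10 were called lower: Rpe65, the retinoid isomerase of the visual cycle, at 257 ± 46.2 CPM in WT and 3.86 ± 2.48 CPM in Prom1-KO (n = 3 each), and Lrat, its partner enzyme, at 145.8 ± 32.2 and 13.6 ± 2.06 CPM. The 4 endothelial markers summed to 52.3 to 107 CPM in WT and 24.9 to 47.0 CPM in Prom1-KO, with 0 of 4 called. The 4 melanocyte markers summed to 447 to 730 CPM and 734 to 774 CPM, also with 0 of 4 called. Of these, Dct was higher in all Prom1-KO libraries, while Mlana, Tyr and Sox10 overlapped, and Sox10 went the other way with a log2 change of -0.64. Photoreceptor and skeletal muscle markers were present too and varied widely between libraries. The photoreceptor sum was 35.8 to 998 CPM in WT and 17.6 to 485 CPM in Prom1-KO, with 0 of 5 called. The skeletal muscle sum was 235 to 698 CPM in WT and 35.7 to 626 CPM in Prom1-KO, with 0 of 4 called. The part of all these marker differences in the Bmp4 difference was not tested. Bmp4 was lower in KO22 too, as given above, beside marker shifts in that clone. Whether these differences share a cause was not tested.

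None of the 3 Id genes was called in tissue. Id2 was at 15.8, 10.4 and 10.00 CPM in WT and 18.2, 20.0 and 19.9 CPM in Prom1-KO, a log2 change of 0.68 ± 0.19 (edgeR adjusted p = 0.357). Id3 was at 21.9, 11.5 and 11.2 CPM in WT and 27.6, 26.1 and 22.8 CPM in Prom1-KO, with 0.78 ± 0.27 (edgeR adjusted p = 0.483). Neither pair of groups overlapped, although WT replicate 1 came close in both. Without Prom1-KO replicate 3 the values were 0.65 and 0.84. Id1 was at 11.8, 9.84 and 4.85 CPM in WT and 6.99, 8.93 and 7.76 CPM in Prom1-KO, inside the WT range, with -0.16 ± 0.31.

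The receptor gene Bmpr1a was at 47.5, 42.8 and 46.6 CPM in WT and 51.0, 48.9 and 66.8 CPM in Prom1-KO. Its log2 fold change of 0.28 ± 0.15 became 0.12 without Prom1-KO replicate 3, the library at 66.8 CPM. Among the other ligands Bmp7, needed for normal eye growth, was at 18.0, 7.46 and 13.1 CPM in WT and 18.0, 17.6 and 5.27 CPM in Prom1-KO. Its log2 fold change was 0.09 ± 0.49, and 0.46 without replicate 3. Bmp2 ranged from 2.99 to 6.49 CPM in WT and 2.62 to 5.61 CPM in Prom1-KO, and Bmp3 from 3.06 to 7.32 and from 4.95 to 7.76 CPM, both overlapping. For Bmp3 the tissue interval was -0.36 to 0.92 on the log2 scale.

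Grem1 in tissue had 133, 6 and 1 counts in WT (1.87, 0.101 and 0.0146 CPM) and 69, 53 and 26 counts in Prom1-KO (1.34, 0.865 and 0.862 CPM). One WT library held more than any Prom1-KO library and the other two held almost none. Its log2 fold change was 0.62 ± 1.19 (edgeR adjusted p = 0.937), and leaving out 1 library at a time moved it between 0.05 and 4.14, the latter without WT replicate 1, which leaves the WT group at 7 counts. Fst ranged from 0.846 to 1.65 CPM in WT and from 0.767 to 1.89 CPM in Prom1-KO. Neither antagonist gene was called in tissue. Of the 53 other pathway genes tested there 0 were called, with a median log2 fold change of -0.05 beside 0.01 over all genes.

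**Figure D5:**
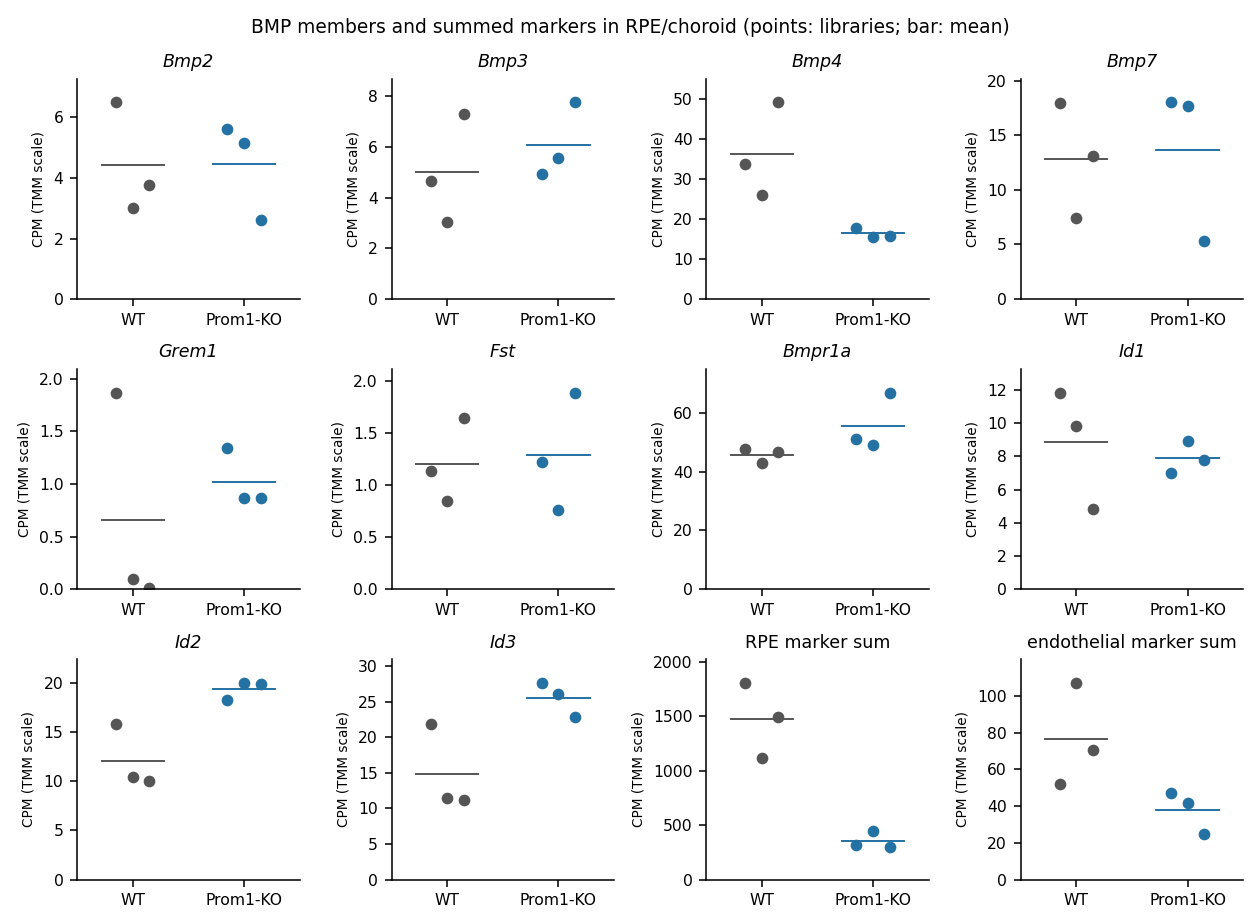
Levels of the 10 BMP members and of the summed RPE and endothelial markers in RPE/choroid, in CPM after TMM scaling on linear axes that start at 0. Each point is 1 library (3 WT, 3 Prom1-KO) and bars are group means. Bmp4 and both marker sums are lower in all 3 Prom1-KO libraries, Id2, Id3 and Bmpr1a are higher in all 3, and the other 6 members overlap.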

How the data were processed

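Raw read counts per gene were used as deposited. The authors used Trim Galore 0.6.7 for trimming and STAR for alignment to mm39 and for counting, and the deposited tables leave out genes they judged too low. These steps are described for the mRPE libraries, and for RPE/choroid per the labels only. The authors' normalized tables were not used. Samples were grouped by their labels, and batches are the numbers in the library names. The members, gene lists, marker lists and tests were chosen with earlier results of these data known.

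Counts were fitted in R 4.3.3 with edgeR 4.0.16 (quasi-likelihood test, TMM). A gene was tested when 3 or more libraries held 5 or more counts, and p-values were adjusted over all genes tested by Benjamini-Hochberg. Batch was a term for mRPE. The fit of KO22 against WT held 7 libraries, the fit for KO26 against WT and for the difference between clones 9, and that of RPE/choroid 6. Calls needed an adjusted p under 0.05 and a log2 fold change beyond 1.2 in size, the limits of the study's methods. SE is the absolute log2 fold change over the square root of F. The 95% intervals are approximate, at ± 1.96 SE, and are narrower than the F test with few libraries would give. In KO26 against WT the intervals of Bmp4 and Id2 lay wholly on the lower side. Their unadjusted edgeR p was 0.0559 and 0.0584. DESeq2 1.42.0 served as an alternative. FPKM used exon lengths of GENCODE on GRCm39, and promoters are the 250 bases before each canonical start. All 10 members were named in every comparison. Of the pathway lists, called genes in KO22 and every called gene in KO26 were named, and Bmp6, Bmp8b, Gdf11, Inhba, Fstl1, Twsg1, Smad1 and Smad6 were added after their values were seen. The fits were tested on simulated data. Total counts of 8076188 to 61766179 per library limit the precision of low genes, and floors cover counting error only, while the 95% intervals of fold changes also carry the spread between libraries.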

Additional observations from a re-analysis of the deposited data

Results flagged for a closer look

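In WT mRPE, replicate 1, the library of batch 8995, lay far above the other 3 for Grem1 (80.9 CPM) and for Fst (10.8 CPM). Of 8 member and group sets of 4 libraries tested by Dixon's criterion 2 stood out, and chance flags about 1 in 20 groups. The effect against WT differed between the clones by the test of KO22 minus KO26 itself for Grem1 (3.77 on the log2 scale, edgeR adjusted p = 0.00012), Bmp2 (8.22, a fitted value that depends on the prior count since KO26 had none), Id1 (1.04, edgeR adjusted p = 0.0113), Bmp3 (-5.48) and Bmp4 (-2.82).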

How the results depend on the processing

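In KO22 against WT, 4 to 6 members were called under every alternative, beside 5 in the main fit. Bmp3, Bmp4, Grem1 and Id1 were called in all of them. Bmp2 had counts in only 2 libraries, and was not tested, when a KO22 library was left out or batch 9262 was fitted alone, and Fst joined at no fold limit. In KO26 against WT the count of 1 became 0 with no batch term (Bmp3 -1.62, edgeR adjusted p = 0.0704), and 0 to 1 on leaving out 1 library. Fits without a KO26 replicate leave 1 library in that group, so their calls carry little weight. In KO22 against KO26, 3 to 5 members were called, and in RPE/choroid 0 under every alternative, DESeq2 included.

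Small values changed sign. None was called with the changed sign. In KO22 against WT Id3 was -0.036 in batch 9262 alone and -0.052 to 0.32 on leaving out 1 library. In KO26 against WT leaving out 1 library gave Id3 -0.032 to 0.21, Grem1 -0.44 to 1.55 and Fst -0.55 to 0.78. In KO22 against KO26 Id2 was -0.0045 and Id3 -0.084 with no batch term, and leaving out 1 library gave -0.44 to 0.38 for Id2, -0.19 to 0.19 for Id3 and -0.17 to 1.16 for Fst. In RPE/choroid it gave Id1 -0.46 to 0.11, Bmp2 -0.19 to 0.41, Bmp7 -0.18 to 0.46 and Fst -0.30 to 0.36.

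Counts over all genes moved by more than 1.5 times with no fold limit (10837 beside 5154 in KO22, 725 beside 399 in KO26, 7132 beside 3797 between clones), by DESeq2 (629 in KO26, 271 beside 47 in RPE/choroid), and in KO26 with no batch term (194), without the KO22 libraries (818) and on leaving out 1 library (114 to 878). In RPE/choroid leaving out 1 library gave 9 to 40. Except for the smaller sets of libraries, the cause was not tested. No paired analysis was possible because the labels give the groups no shared replicate numbers. With 3 WT and 3 Prom1-KO tissue libraries, and few counts of Grem1 in some of them, the tissue values are imprecise.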
